A study of Mus musculus with 14 samples.

Results

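The 4 mature miRNAs that share one stretch of the Aatk locus were measured in mouse dorsal root ganglia (DRG), where the somata of sensory neurons sit among satellite glia and Schwann cells. They are miR-338-3p and miR-338-5p, cut from the Mir338 hairpin on the strand of Aatk, and miR-3065-5p and miR-3065-3p, cut from the Mir3065 hairpin on the other strand. They were taken by name, with earlier results of these data known. They make up 4 of the 1123 mature miRNAs listed in each library. Small RNA was sequenced from 14 libraries of 2 inbred mouse strains, with and without a crush of the left sciatic nerve. The groups were CAST/Ei injured (3 libraries), CAST/Ei naive (3), C57BL/6 injured (3) and C57BL/6 naive (5). Injured animals of both strains were males of 8 to 10 weeks whose nerve was pinched for 30 s. No treatment is recorded for naive animals, and the labels state neither their age and sex nor the interval between crush and dissection. All ganglia were dissociated before RNA extraction, and no library was made from sorted cells. The comparisons ask whether the crush changes these miRNAs in either strain and whether they differ between the strains.

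A miRNA hairpin is cut into a 5p and a 3p arm, and the arm that stays bound to an Argonaute protein accumulates while the other is mostly lost. The bound arm recognises its targets mainly through its seed, bases 2 to 8. miR-338 lies in an intron of Aatk, a gene for a kinase of the nervous system, and is best known from myelinating glia, where in mouse oligodendrocytes it acts with miR-219 to let precursors mature. In rat sympathetic axons miR-338 has also been found to lower a nuclear-encoded subunit of cytochrome c oxidase, so its name is not tied to glia alone. miR-3065 is read from the same DNA in the opposite direction.

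The sequences below show that both hairpins occupy the same bases of the genome on opposite strands, and which arm faces which. They are from RefSeq on the GRCm38.p6 build, all on chromosome 11. The Mir338 hairpin is at chr11:120014765-120014862 on the minus strand and is 98 bases long, and the Mir3065 hairpin is at chr11:120014767-120014853 on the plus strand, 87 bases long and wholly inside the Mir338 span. In the mature miRNAs the capitals mark the seed. In the Mir338 hairpin they mark miR-338-5p and then miR-338-3p, and in the Mir3065 hairpin they mark miR-3065-5p and then the 22 bases complementary to miR-338-5p.
miR-338-3p: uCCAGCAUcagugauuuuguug
miR-338-5p: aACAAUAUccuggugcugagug
miR-3065-5p: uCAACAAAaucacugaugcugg
Mir338: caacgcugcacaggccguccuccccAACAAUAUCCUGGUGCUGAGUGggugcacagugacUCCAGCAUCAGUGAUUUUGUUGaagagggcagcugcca
Mir3065: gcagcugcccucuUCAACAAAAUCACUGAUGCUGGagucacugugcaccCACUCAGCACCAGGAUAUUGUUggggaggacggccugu
The mature sequence was matched for 3 of the 4 miRNAs. miR-338-3p and miR-3065-5p are complementary to each other over 21 bases, so the abundant arm of each hairpin faces the abundant arm of the other. Their seeds nonetheless differ, and each of the 3 seeds occurs in 0 other of the 1679 mature names in the reference table. The Mir338 hairpin falls in intron 7 of 13 of the 3 protein-coding Aatk transcripts. Of all 9 annotated Aatk transcripts, 6 carry it in an intron, 3 do not reach it and 0 have it in an exon.

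**Figure D1:**
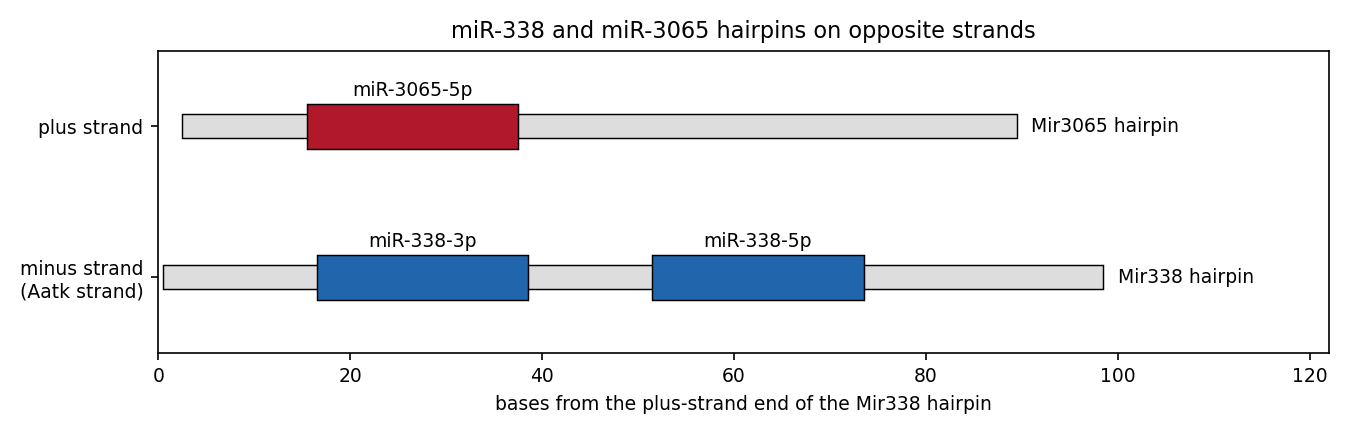
Position of the hairpins (grey) and mature miRNAs (coloured) on the plus and minus strands, in bases from the plus-strand end of the Mir338 hairpin. miR-338-3p (bases 17 to 38) and miR-3065-5p (bases 16 to 37) lie over the same bases, and miR-338-5p spans bases 52 to 73.

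Values are the deposited signal, which is counts scaled to a common library total (CPM) on library sizes scaled by TMM, a method that sets the typical miRNA equal between libraries. Libraries held 4007706 to 15642360 reads, and 1 read was worth 0.0674 to 0.253 CPM. All 4 miRNAs were detected in every library and passed the filter of at least 5 CPM in at least 3 libraries, which kept 638 miRNAs. Among the C57BL/6 naive libraries, numbers 4 and 5 were unlike the other 12 libraries. Their rank correlations with those 12 across the 638 miRNAs were 0.871 to 0.926, against 0.925 to 0.993 among the 12, and their 10 most abundant miRNAs took 50.1 to 56.6% of the signal, against 37.7 to 45.9%. They also held more of several miRNAs of other tissues. Their 6 epithelial miRNAs summed to 1496 and 306 CPM, against 34.0 to 44.7 CPM in naive libraries 1 to 3, and miR-122-5p, the miRNA of hepatocytes, stood at 661 and 369 CPM, against 8.63 to 15.7 CPM. The part of these miRNAs in the results was not tested, and the main differences that rest on the C57BL/6 naive group are also given without libraries 4 and 5.

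miR-338-3p averaged 29046 CPM over all libraries, the seventh highest of all miRNAs and 2.89% of the signal. miR-338-5p averaged 2288 CPM, miR-3065-5p 2239 CPM and miR-3065-3p 158 CPM, which placed them 66, 67 and 233 of 1123. The miRNAs read from both strands of one DNA stretch thus spanned a wide range of levels, with miR-338-3p well above the rest in every library. miR-338-5p and miR-3065-5p could not be ordered, since miR-3065-5p was the higher of the pair in 8 of 14 libraries and miR-338-5p in 6. The miR-3065 strand gave 7.23% ± 0.203 of the reads of the locus in CAST/Ei injured DRG, 6.51% ± 0.908 in CAST/Ei naive, 6.54% ± 0.503 in C57BL/6 injured (SD, n = 3 each) and 9.95% ± 4.68 in C57BL/6 naive (n = 5). Without C57BL/6 naive libraries 4 and 5 the last share was 6.67% ± 1.22 (n = 3). These shares go by miRNA name, since no label says whether counting used strand. miR-338-3p and miR-3065-5p are complementary over 21 bases, and whether reads of one were counted for the other was not tested. When only miRNAs in the reference table were summed, the lower strand gave 6.67% for Mir3065 and Mir338. Among 7 pairs of hairpins that overlap on opposite strands and whose mature names belong to no other hairpin, 3 had a larger share, 28.1% for Mir337 and Mir3544, 21.9% for Mir126a and Mir126b and 10.2% for Mir136 and Mir3071.

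The label of glial miRNA was set against other miRNAs of the ganglion. Of 11 listed miRNAs of myelinating glia, 2 are the miR-338 arms, 7 belong to the miR-219 family and the others are miR-23a-3p and miR-32-5p. The miR-219 members averaged between 0.651 and 9.0 CPM, where 3 reads were worth 0.202 to 0.760 CPM by library. The 4 of them that passed the filter were at 0 in 0 libraries, and 2 of the others were at 0 in at least 1 library. miR-23a-3p averaged 22272 CPM and miR-32-5p 488 CPM, and neither is limited to glia. miR-29a-3p, the most abundant of 6 miRNAs reported from Schwann cells, averaged 28622 CPM, close to miR-338-3p. miR-138-5p, the most abundant of 12 neuronal miRNAs, averaged 80782 CPM. The partner of miR-338 in oligodendrocytes was thus scarce where miR-338-3p was plentiful. The libraries are of whole dissociated ganglia, so fewer cells of a type and less miRNA per cell cannot be told apart in any comparison.

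The miRNA that separated the strains was miR-3065-3p, the scarcest of the locus. It stood at 18.4, 26.2 and 21.0 CPM in CAST/Ei injured libraries and at 25.2, 23.4 and 56.9 CPM in CAST/Ei naive libraries. In C57BL/6 it stood at 284, 235 and 243 CPM in injured libraries and at 215, 233, 183, 289 and 357 CPM in naive libraries. Every CAST/Ei library lay below every C57BL/6 library, with CAST/Ei naive library 3 the highest of its strain. The share of all miRNAs that separate the strains in this way over all 14 libraries was not counted. These levels rest on 163 to 348 reads in CAST/Ei libraries and 723 to 2882 reads in C57BL/6 libraries.

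In naive DRG miR-3065-3p averaged 35.2 ± 18.9 CPM in CAST/Ei and 256 ± 68.7 CPM in C57BL/6 (SD, n = 3 and 5), a 7.27-fold lower mean. Its log2 difference, CAST/Ei minus C57BL/6, was −2.91 ± 0.31 (SE; limma adjusted p = 1.03e-05), the sixth lowest p of 638 miRNAs. In injured DRG it averaged 21.8 ± 3.99 CPM in CAST/Ei and 254 ± 26.1 CPM in C57BL/6 (SD, n = 3 each), an 11.6-fold lower mean. That log2 difference was −3.49 ± 0.35 (SE; adjusted p = 6.09e-06), the fourth lowest p. Naive CAST/Ei libraries lay wholly below C57BL/6 ones for 7.05% of the 638 miRNAs and injured ones for 20.5%. Lower calls were made for 33 of 638 miRNAs (5.17%) in naive DRG, for 16 (2.51%) in injured DRG and for 13 (2.04%) in both. miR-3065-3p was the only one of the 4 miRNAs of the locus called in either. Without C57BL/6 naive libraries 4 and 5 the naive difference was −2.66 (adjusted p = 2.15e-05). Reads of both strains were counted under the same miRNA names, and whether strain alleles at the locus affect that counting was not tested.

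The other 3 miRNAs did not pass between strains, in contrasts that called 71 of 638 miRNAs (11.1%) in naive DRG and 21 (3.29%) in injured DRG. In naive DRG miR-338-3p had a log2 difference of 1.28 ± 0.46 (CAST/Ei minus C57BL/6; limma adjusted p = 0.0743), miR-3065-5p 0.87 ± 0.35 (adjusted p = 0.0972) and miR-338-5p 0.51 ± 0.31 (SE; adjusted p = 0.278). The first had groups that did not overlap, with CAST/Ei higher, as had 9.4% of the 638 miRNAs. Without C57BL/6 naive libraries 4 and 5 the differences were 0.52 for miR-338-3p, 0.62 for miR-3065-5p and 0.16 for miR-338-5p, none past the threshold. Single libraries also moved the call. miR-338-3p passed without C57BL/6 naive library 2 (1.57, limma adjusted p = 0.0287) or naive library 3 (1.55, adjusted p = 0.0216). miR-3065-5p passed without library 2 (1.06, adjusted p = 0.0479) or library 3 (1.09, adjusted p = 0.025). Libraries 2 and 3 were the highest C57BL/6 naive libraries for both miRNAs. Calls over all miRNAs in this contrast ran from 21 to 147 over the alternatives, and the 147 came without library 3. In injured DRG the log2 differences were −0.35 ± 0.51 for miR-338-3p, −0.47 ± 0.35 for miR-338-5p and −0.075 ± 0.39 for miR-3065-5p (SE; adjusted p of 0.882 or more). Both miR-338 arms had CAST/Ei injured libraries below all C57BL/6 injured libraries, as had 20.5% of miRNAs. For miR-3065-5p, the arm from the same hairpin as miR-3065-3p, the 95% interval in injured DRG ran from −0.90 to 0.75, which leaves out the difference of its partner arm.

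**Figure D2:**
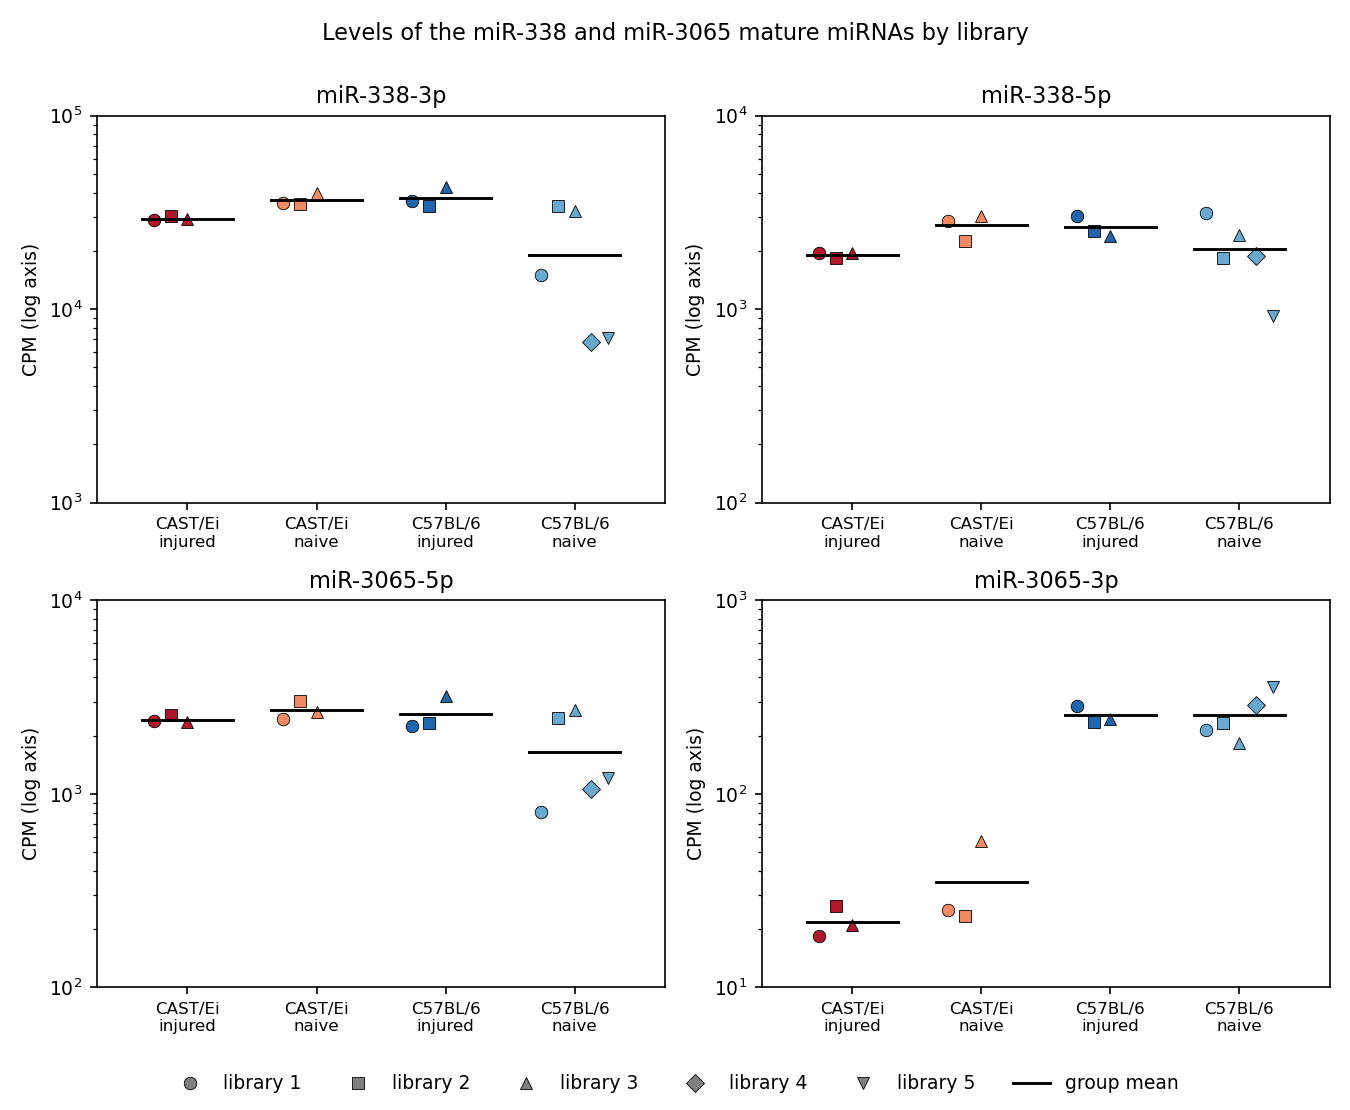
CPM of each of the 4 miRNAs in every library on a log axis, by group, with a line at the group mean. All 6 CAST/Ei libraries lie at 18.4 to 56.9 CPM for miR-3065-3p and all 8 C57BL/6 libraries at 183 to 357 CPM, while C57BL/6 naive libraries 1, 4 and 5 are the lowest for miR-338-3p and miR-3065-5p. For miR-338-5p the C57BL/6 naive libraries, at 921 to 3157 CPM, span all other groups. CAST/Ei injured libraries, at 1836 to 1949 CPM, lie below all CAST/Ei naive and all C57BL/6 injured libraries, as for 16.5% and 20.5% of the 638 miRNAs.

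The ratio between the arms of a hairpin is free of the scaling between libraries. For miR-3065 there were 129, 97.7 and 112 reads of the 5p arm for each 3p read in CAST/Ei injured libraries and 96.3, 129 and 46.8 in CAST/Ei naive libraries. There were 7.87, 9.82 and 13.2 in C57BL/6 injured libraries and 3.76, 10.5, 14.8, 3.67 and 3.36 in C57BL/6 naive libraries. The lowest CAST/Ei ratio was above the highest C57BL/6 ratio. The share of all hairpins whose arm ratios separate the strains in this way was not counted. The 3p arm made up 0.890% ± 0.122 of miR-3065 reads in CAST/Ei injured DRG, 1.30% ± 0.701 in CAST/Ei naive, 9.19% ± 2.11 in C57BL/6 injured (SD, n = 3 each) and 16.1% ± 7.90 in C57BL/6 naive (n = 5). In naive libraries 1 to 3 alone it was 6.34 to 21.0%.

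The strain difference in the miR-3065 arm ratio was tested beside that of every hairpin with both arms kept, 199 in all. The log2 ratio of 3p to 5p was −6.34 ± 0.73 in CAST/Ei naive and −2.56 ± 0.999 in C57BL/6 naive DRG (SD, n = 3 and 5), a difference of −3.78 ± 0.50 (SE; limma adjusted p = 0.000174). It was −6.74 ± 0.19 in CAST/Ei injured and −3.33 ± 0.37 in C57BL/6 injured DRG (SD, n = 3 each), a difference of −3.42 ± 0.55 (SE; adjusted p = 0.00239). Among all 199, miR-3065 had the largest difference and the lowest p in both comparisons. Arm ratios were called for 2 hairpins (1.01%) in naive DRG and 1 (0.503%) in injured DRG. The other hairpin in naive DRG was miR-669o, with a log2 difference of −1.98 (adjusted p = 0.006), named after its value was seen. Without C57BL/6 naive libraries 4 and 5 the naive difference of miR-3065 was −3.28 (adjusted p = 0.00115).

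**Figure D3:**
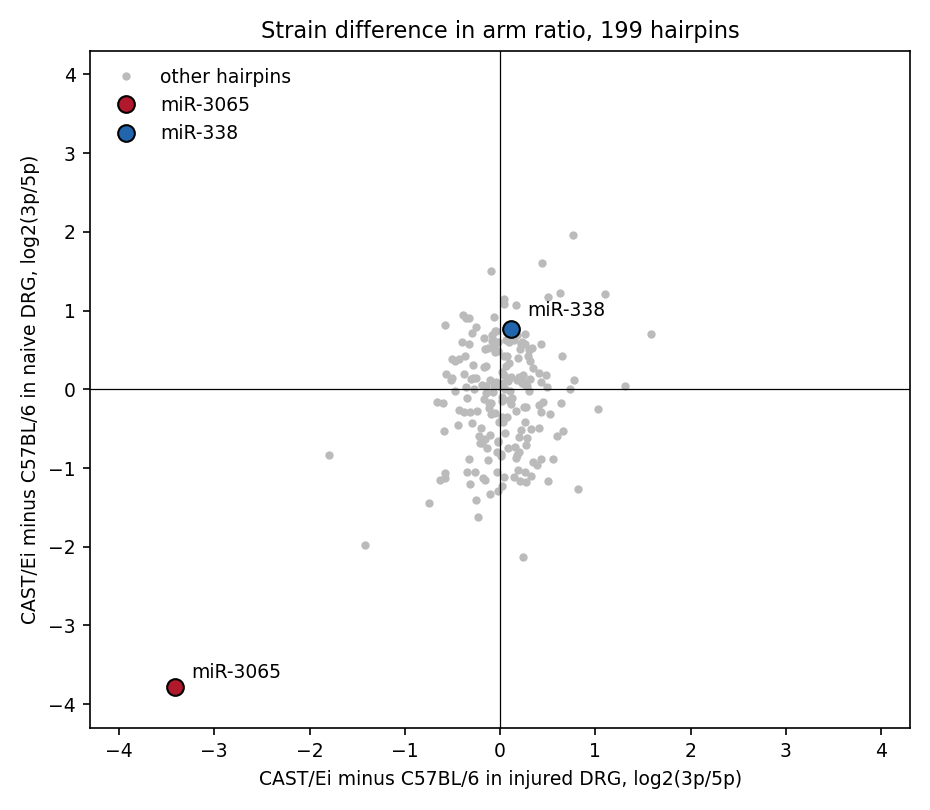
Strain difference (CAST/Ei minus C57BL/6) in the log2 ratio of 3p to 5p for 199 hairpins, in injured DRG on the x axis and naive DRG on the y axis. miR-3065 lies at −3.42 and −3.78, outside the cloud of the other hairpins, and miR-338 at 0.11 and 0.77.

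The arm ratio of the miR-338 hairpin overlapped between the strains. There were 14.8, 16.5 and 14.97 reads of miR-338-3p for each read of miR-338-5p in CAST/Ei injured libraries and 12.5, 15.5 and 13.1 in CAST/Ei naive libraries. There were 11.9, 13.5 and 18.0 in C57BL/6 injured libraries and 4.77, 18.6, 13.3, 3.56 and 7.73 in C57BL/6 naive libraries. The first 3 groups overlapped within a narrow span, and only C57BL/6 naive libraries 1, 4 and 5 lay below it. The same 3 libraries had the lowest miR-3065 ratios. The strain difference in log2(3p/5p) of miR-338 was 0.77 ± 0.46 in naive DRG (SE; limma adjusted p = 0.377; 0.37 without libraries 4 and 5) and 0.11 ± 0.51 in injured DRG (adjusted p = 0.989). In library 1 the median hairpin did not share the low ratio, with an abundant-over-scarce arm ratio 0.060 above its median over libraries on the log2 scale, against −0.18 and −0.23 in libraries 4 and 5 and −1.49, −1.91 and −0.79 for miR-338 in libraries 1, 4 and 5.

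**Figure D4:**
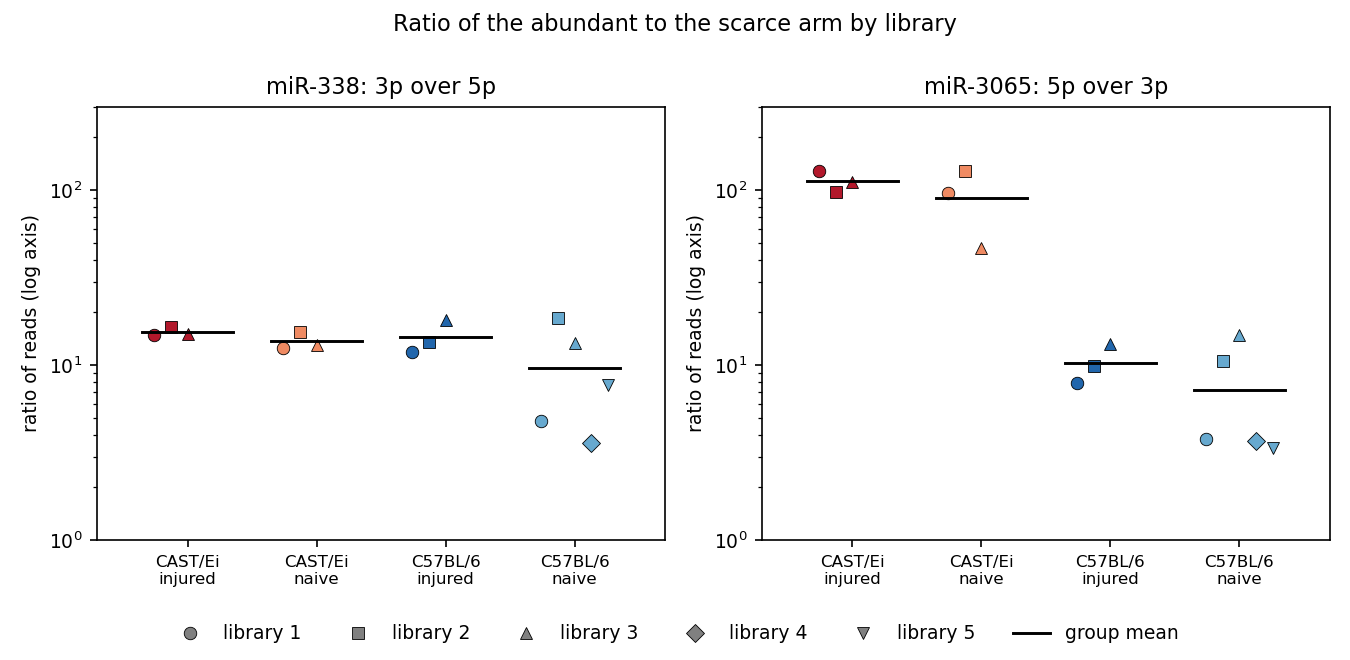
Reads of the abundant arm for each read of the scarce arm in every library, on a log axis, with a line at the group mean. For miR-3065 the CAST/Ei libraries lie at 46.8 to 129 and the C57BL/6 libraries at 3.36 to 14.8, and for miR-338 the strains overlap.

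Ratios across the strands were compared with exact two-sided permutation tests, 8 in all. miR-338-3p outnumbered miR-3065-5p, the arm it faces, 12.2 ± 0.323 to 1 in CAST/Ei injured DRG, 13.7 ± 1.86 in CAST/Ei naive, 14.8 ± 1.36 in C57BL/6 injured (SD, n = 3 each) and 11.3 ± 5.33 in C57BL/6 naive (n = 5). C57BL/6 naive libraries 4 and 5 had the lowest ratios, 6.37 and 5.93. Whether counting kept these facing arms apart by strand was not tested. Between injured strains the groups did not overlap, with a log2 ratio of 3.60 ± 0.038 in CAST/Ei and 3.88 ± 0.13 in C57BL/6 (SD, n = 3 each), a difference of −0.28 (exact p = 0.1, the smallest for 3 against 3 libraries, adjusted p = 0.267). In the other 3 comparisons of this ratio the groups overlapped (exact p of 0.286 or more, adjusted p = 0.533). miR-338-5p outnumbered miR-3065-3p 89.6 ± 18.0 to 1 in CAST/Ei injured DRG, 87.6 ± 30.8 in CAST/Ei naive, 10.4 ± 0.501 in C57BL/6 injured (SD, n = 3 each) and 8.98 ± 4.97 in C57BL/6 naive (n = 5). The strain difference of its log2 was 3.41 in naive DRG (exact p = 0.0179, adjusted p = 0.143) and 3.03 in injured DRG (exact p = 0.1, adjusted p = 0.267). Each p is the smallest that the number of libraries allows, and the groups did not overlap in either. Without C57BL/6 naive libraries 4 and 5 the naive difference was 2.82 (exact p = 0.1, the smallest for 3 against 3 libraries).

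The injury comparison in C57BL/6 turned on the naive libraries. miR-338-3p, the arm best known from myelinating glia, stood at 36075, 34069 and 42996 CPM in C57BL/6 injured libraries and at 15061, 33986, 32272, 6735 and 7116 CPM in C57BL/6 naive libraries. All injured libraries were above all naive libraries, but naive libraries 2 and 3 came close to them, while libraries 1, 4 and 5 were far below. The log2 difference was 1.31 ± 0.46 (SE; limma adjusted p = 0.12). It did not pass, in a contrast that called 20 of 638 miRNAs (3.13%) and in which 8.62% had injured libraries wholly above naive ones. The difference was 0.56 without naive libraries 4 and 5 (adjusted p = 0.254) and 0.87 by edgeR on the recovered reads (adjusted p = 0.245). It passed when naive library 2 (1.60, adjusted p = 0.0487) or naive library 3 (1.58, adjusted p = 0.0308) was left out. Calls over all miRNAs in this contrast ran from 3 to 79 over the alternatives.

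The remaining miRNAs did not pass after injury in C57BL/6 either. miR-3065-5p stood at 2235, 2312 and 3203 CPM in injured libraries and at 809, 2459, 2707, 1058 and 1201 CPM in naive libraries, with the low values again in naive libraries 1, 4 and 5. Its log2 difference was 0.79 ± 0.35 (SE; limma adjusted p = 0.185). miR-338-5p stood at 3022, 2531 and 2390 CPM in injured libraries and at 3157, 1832, 2424, 1891 and 921 CPM in naive libraries, so that naive library 1 was the highest of all for this arm. Its log2 difference was 0.48 ± 0.31 (adjusted p = 0.379). For miR-3065-3p it was 0.028 ± 0.31 (adjusted p = 0.963), with a 95% interval from −0.63 to 0.69. Without naive libraries 4 and 5 the differences were 0.54 for miR-3065-5p, 0.13 for miR-338-5p and 0.27 for miR-3065-3p, none past the threshold.

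In CAST/Ei the injury differences were negative in sign for all 4 miRNAs, except that miR-3065-5p was at 0.11 with plain CPM and at 0.086 with a library total that omits the 3 most abundant miRNAs. miR-338-3p stood at 28769, 30280 and 29186 CPM in CAST/Ei injured libraries and at 35523, 34794 and 39788 CPM in CAST/Ei naive libraries. miR-338-5p stood at 1940, 1836 and 1949 CPM in injured libraries and at 2850, 2250 and 3036 CPM in naive libraries. For both arms every injured library lay below every naive library, as for 16.5% of the 638 miRNAs. The log2 differences were −0.32 ± 0.51 for miR-338-3p (SE; limma adjusted p = 0.936) and −0.50 ± 0.35 for miR-338-5p (adjusted p = 0.793), and the contrast called 7 miRNAs (1.1%), none of them from the locus. miR-3065-5p stood at 2367, 2557 and 2338 CPM in injured libraries and at 2426, 3007 and 2664 CPM in naive libraries. Its log2 difference was −0.15 ± 0.39 and that of miR-3065-3p −0.56 ± 0.35 (SE; adjusted p = 0.947 and 0.746). The miR-3065 arm ratio did not pass after injury in either strain, with log2 differences of −0.77 ± 0.50 in C57BL/6 and −0.41 ± 0.55 in CAST/Ei (SE; adjusted p = 0.444 and 0.999), nor did that of miR-338. limma called 0 of 199 hairpins (0%) in each, with 23 and 4 at an unadjusted p under 0.05. The C57BL/6 difference of miR-3065 was −0.27 without C57BL/6 naive libraries 4 and 5.

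The difference between the injury effects of the strains, CAST/Ei minus C57BL/6, was −1.63 ± 0.69 for miR-338-3p, −0.97 ± 0.46 for miR-338-5p, −0.95 ± 0.52 for miR-3065-5p and −0.59 ± 0.46 for miR-3065-3p on the log2 scale (SE; limma adjusted p of 0.529 or more). limma called 0 of 638 miRNAs (0%) for this difference, with 52 at an unadjusted p under 0.05, while edgeR called 1 and DESeq2 9. With C57BL/6 naive libraries 4 and 5 left out the differences were −0.88 for miR-338-3p, −0.62 for miR-338-5p, −0.69 for miR-3065-5p and −0.83 for miR-3065-3p (limma adjusted p of 0.437 or more). Averaged over strains, the injury differences ran from −0.27 for miR-3065-3p to 0.50 for miR-338-3p (adjusted p of 0.532 or more), in a contrast that called 27 miRNAs (4.23%). These values were −0.14 for miR-3065-3p and 0.12 for miR-338-3p when the same 2 libraries were left out.

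**Figure D5:**
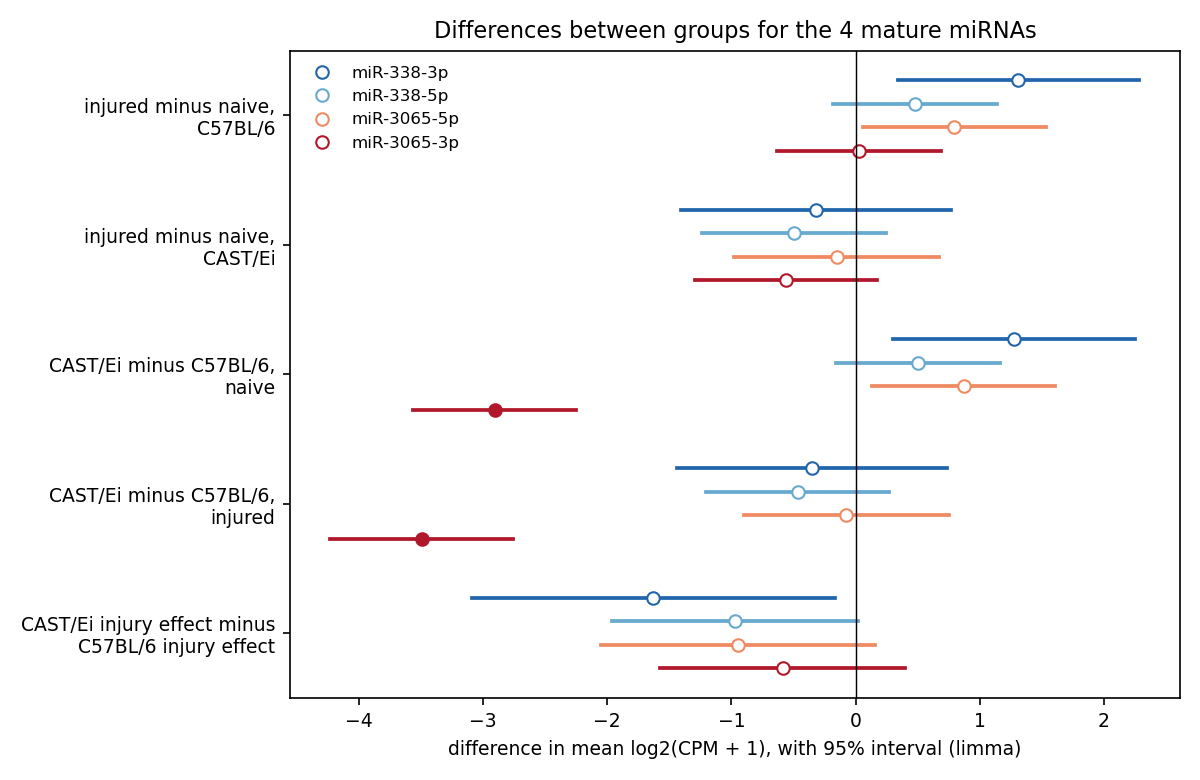
Difference in mean log2(CPM + 1) for each of the 4 miRNAs in 5 comparisons, with 95% intervals from limma. Filled points passed the threshold, and these are miR-3065-3p between strains in naive (−2.91) and injured DRG (−3.49).

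C57BL/6 naive libraries 4 and 5 lay apart from naive libraries 1 to 3 in both 3p arms, below all 3 for miR-338-3p and above all 3 for miR-3065-3p. The share of all 638 miRNAs that separate these 2 sets was not counted, so this describes levels only. The 5p arms overlapped between the 2 sets, since naive library 1 (809 CPM) was below libraries 4 and 5 for miR-3065-5p and naive library 2 (1832 CPM) was below library 4 (1891 CPM) for miR-338-5p. The difference in mean log2, libraries 4 and 5 minus libraries 1 to 3, was −1.88 for miR-338-3p, −0.87 for miR-338-5p, −0.64 for miR-3065-5p and 0.61 for miR-3065-3p. For the 6 other kept miRNAs of the myelinating glia list the median was −0.49, and for all 638 it was −0.058. All 6 were lower in libraries 4 and 5, from −0.21 for miR-23a-3p to −1.78 for miR-219a-2-3p. The 9 listed glial miRNAs outside the locus summed to 19935 and 16058 CPM in libraries 4 and 5. They summed to 17715, 21085 and 23765 CPM in libraries 1 to 3, so that these sums overlapped. Nearly all of each sum was miR-23a-3p, which averaged 22272 CPM over all libraries and is not limited to glia. The 12 neuronal miRNAs summed to 172515 and 183631 CPM in libraries 4 and 5, against 141129 to 153055 CPM in libraries 1 to 3. The largest part of these sums was miR-138-5p, which averaged 80782 CPM over all libraries. By miRNA, libraries 4 and 5 minus libraries 1 to 3 ran from −1.21 for miR-132-3p to 1.56 for miR-7a-5p on the log2 scale. After injury the neuronal sum was 118009 to 120825 CPM in C57BL/6, against 141129 to 183631 CPM in naive libraries. In CAST/Ei it was 112770 to 122306 CPM, against 142198 to 160173 CPM. By miRNA the log2 differences ran from −0.70 to 0.91 in C57BL/6 and from −0.55 to 0.41 in CAST/Ei, with medians of −0.084 and −0.37. limma called 0 of the 12 in either strain. The part of the neuronal sum in the differences of the locus was not tested.

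Of the myelinating glia list outside the locus, 6 miRNAs were kept. After injury in C57BL/6, 0 of 6 passed (3.13% of all 638 miRNAs did), with a median log2 difference of 0.41 against 0.12 over all 638. In CAST/Ei 0 of 6 passed (1.1% of all did), with a median of −0.41 against −0.085. Between strains 1 of 6 passed in naive DRG (11.1% of all did), with a median of 0.75 against 0.12. It was miR-32-5p, which was higher in CAST/Ei by 1.11 ± 0.31 on the log2 scale (SE; limma adjusted p = 0.0319). In injured DRG 0 of 6 passed (3.29% of all did), with a median of −0.072 against −0.058. The other kept members were miR-23a-3p, miR-219a-5p, miR-219a-2-3p, miR-219b-3p and miR-219c-3p, and in no contrast did any of them lie as low in CAST/Ei as miR-3065-3p. Of the 6 Schwann cell and 12 neuronal miRNAs, 0 passed in these 4 comparisons, against the same shares of all miRNAs.

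The lists were also counted without C57BL/6 naive libraries 4 and 5, a choice made after seeing the data, which left 627 miRNAs past the filter. Of these, 4.63% passed after injury in C57BL/6, 2.71% after injury in CAST/Ei, 14.2% between naive and 5.1% between injured strains. miR-32-5p was then higher in naive CAST/Ei by 0.92 ± 0.28 (SE; limma adjusted p = 0.0401), again the 1 of 6 glial miRNAs that passed, and the glial median was 0.56 against 0.12. After injury in C57BL/6 the glial median was 0.22 against 0.14. Of the 12 neuronal miRNAs, 3 were higher in naive CAST/Ei, miR-9-5p by 0.78 (adjusted p = 0.00945), miR-9-3p by 0.73 (adjusted p = 0.0189) and miR-129-5p by 0.80 (adjusted p = 0.034). The other counts of glial, Schwann cell and neuronal miRNAs stayed at 0.

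The miRNAs whose levels ran most like those of each member were found by Pearson's r of log2(CPM + 1) over libraries, and are given as a description. Over the 12 libraries without C57BL/6 naive 4 and 5, miR-338-3p ran most like miR-3065-5p within the locus (r = 0.93, Spearman's rho = 0.46). C57BL/6 naive library 1 was the lowest of the 12 for both, and whether counting kept these facing arms apart by strand was not tested. The nearest to miR-338-3p outside the locus were miR-411-3p (r = 0.91, rho = 0.82), miR-199b-5p (rho = 0.44), miR-199a-5p (rho = 0.71) and miR-19b-3p (rho = 0.70). miR-338-5p had an r of −0.12 with its own 3p arm (rho = 0.29), against 0.58 (rho = 0.50) over all 14 libraries. Over the 12 libraries it ran most like 4 let-7 members, let-7c-5p (r = 0.89, rho = 0.92), let-7e-5p, let-7d-5p and let-7a-5p. Outside the locus miR-3065-5p ran most like miR-488-3p (r = 0.89, rho = 0.81), miR-199b-5p (rho = 0.38), miR-299a-3p (rho = 0.66) and miR-369-3p (rho = 0.48). The median r of all kept miRNAs with each of the 4 lay between −0.044 and 0.093.

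miR-3065-3p ran most like other miRNAs that separate the strains, so its r reflects 2 clusters of libraries. The nearest over 12 libraries were miR-7688-5p (r = 0.97), miR-467c-5p, miR-341-3p and miR-3095-3p, and over all 14 also miR-3060-3p, miR-673-5p and miR-676-5p. All 7 were lower in CAST/Ei in both naive and injured DRG. Picking them by r with miR-3065-3p favoured that outcome in advance, so it is no separate evidence of a strain difference. Of these, miR-673-5p and miR-3095-3p averaged only 2.95 and 3.94 CPM over all libraries. The log2 differences of the 7 in naive DRG ran from −1.59 for miR-673-5p to −4.89 for miR-341-3p, with −2.91 for miR-3065-3p inside that range. Over all 14 libraries the nearest to the other members were let-7d-5p, miR-592-5p, miR-300-5p and miR-872-5p for miR-338-5p. They were miR-22-5p, miR-376c-5p, miR-136-3p and miR-130a-3p for miR-338-3p, and miR-199b-5p, miR-369-3p, miR-216a-5p and miR-376b-5p for miR-3065-5p.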

How the data were processed

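Mature miRNAs were measured in 14 small RNA libraries. Per the labels' protocols, RNA was extracted with the miRVana kit and libraries were made with the Ion Total RNA-Seq kit. Bowtie2 was used, per the submitters' processing notes. No label gives the genome build or says whether counting used strand. The deposited files hold 1 signal value per miRNA, from which whole reads were recovered for 100% of values within 1e-06 reads. The signal equals CPM on TMM-scaled library sizes, with factors from edgeR differing by at most 9.08e-06. Plain CPM had been planned for, and the test was not changed.

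Values were tested as log2(CPM + 1) with limma-trend (limma 3.58.1, R 4.3.3). A floor of 5 CPM, reached in 3 or more libraries, left 638 miRNAs, which entered 1 model of 4 group means, and p-values are two-sided, adjusted in each contrast over all of them (Benjamini-Hochberg), with a threshold of 0.05. Arm ratios were tested likewise over 199 hairpins. As alternatives, edgeR 4.0.16 on the recovered reads called 32 miRNAs after injury in C57BL/6, 8 in CAST/Ei, 77 between naive and 21 between injured strains, and DESeq2 1.42.0, other scalings, filters, pseudocounts, library weights and left-out libraries were tried. The fits were tested on simulated data. Libraries of a group are biological replicates per the design text, which does not say how many animals each came from.

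Libraries share replicate numbers across groups. Between naive strains the deviations of same-numbered libraries from their group means correlated at 0.104 to 0.114 in all 3 pairs. A pair with different numbers, 2 and 3, correlated more, at 0.129, so the numbers do not show a pairing. Since the same-numbered pairs were above the limit of 0.1 set for pairing, that contrast was also fitted with the number as a block. Its calls for the locus did not change, while the number of miRNAs called went to 111, against 71 without the block. The blocked fit also omits C57BL/6 naive libraries 4 and 5, and omitting them alone gave 89.

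The text names the 4 members, the kept miRNAs of the myelinating glia list, the most abundant Schwann cell and neuronal miRNAs, and the 4 miRNAs most like each member over 14 and over 12 libraries. The members and lists were chosen with earlier results of these data known. Other listed cell types, in 8 lists, are described in the closing section. Sequences are from RefSeq and Aatk transcripts from the reference annotation.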

Additional observations from a re-analysis of the deposited data

How the results depend on the processing

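miR-3065-3p was lower in CAST/Ei, past the threshold, in all 29 alternatives in naive DRG (log2 −3.30 to −2.66, adjusted p at most 0.000716) and all 29 in injured DRG (−3.63 to −3.28, adjusted p at most 0.000309), and its arm ratio in all 20 of each (−4.18 to −3.28 and −3.61 to −3.20). Leaving out a library outside the compared groups cannot move the difference itself, so the alternatives are not all separate checks. The injured difference of miR-3065-3p stayed at −3.49 without C57BL/6 naive libraries 4 and 5 and under the replicate block. Under the replicate block the naive difference of miR-3065-3p was −2.66, and the block changed no call for the locus. It drops C57BL/6 naive libraries 4 and 5, which have no partner. In the other 3 contrasts not all same-numbered pairs were above the limit (1 of 3, 1 of 3 and 0 of 3 correlations over 0.1).

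Differences near 0 changed sign in several settings, and the cause was not tested. With plain CPM, miR-3065-5p stood at 0.11 after injury in CAST/Ei and 0.0067 between injured strains, and miR-338-5p at 0.20 after injury averaged over strains. With a library total that omits the 3 most abundant miRNAs these were 0.086, 0.034 and 0.14. These scalings moved the median of all 638 miRNAs to 0.16 and 0.14 after injury in CAST/Ei, against −0.085. With upper quartile scaling, miR-3065-5p between injured strains was 0.015. After injury in C57BL/6, miR-3065-3p was −0.030 with upper quartile scaling, −0.057 with DESeq2 size factors, −0.13 by edgeR and −0.10 by DESeq2. Without C57BL/6 injured library 1, a setting chosen after seeing the data, edgeR gave −0.19. Fitted on the compared groups alone, miR-338-5p between injured strains was −0.47 and passed (adjusted p = 0.0278). The difference of the strains' injury effects on the miR-3065 arm ratio was −0.14 with the replicate block and without C57BL/6 naive libraries 4 and 5. Without those 2 libraries, miR-338-3p over miR-3065-5p between naive strains was −0.092, and miR-338-5p over miR-3065-3p was −0.15 after injury in C57BL/6 and 2.82 between naive strains (exact p = 0.1, the smallest possible).

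With each library left out in turn, miR-3065-3p after injury in C57BL/6 ran from −0.082 to 0.16, miR-3065-5p between injured strains from −0.17 to 0.089, the miR-338 arm ratio between injured strains from −0.014 to 0.28, miR-338-5p over miR-3065-3p after injury in CAST/Ei from −0.25 to 0.28 and miR-338-5p after injury averaged over strains from −0.14 to 0.082. miR-338-3p after injury in C57BL/6 ran from 1.02 to 1.60, and between naive strains miR-338-3p ran from 0.98 to 1.57 and miR-3065-5p from 0.66 to 1.09. These 3 passed without C57BL/6 naive library 2 (adjusted p = 0.0487, 0.0287 and 0.0479) and without naive library 3 (0.0308, 0.0216 and 0.025).

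Counts of calls over all miRNAs moved more. After injury in C57BL/6 there were 20, with 3 to 79 over the alternatives, in CAST/Ei 7 (3 to 32) and averaged 27 (15 to 78). Between naive strains there were 71 (21 to 147) and between injured strains 21 (8 to 109). The 147 came without C57BL/6 naive library 3. Depth limits miR-3065-3p most, with 163 reads in the CAST/Ei library that had fewest.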

Other observations

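Of the other cell type lists, 2 of 4 skeletal muscle miRNAs were lower and 1 of 7 leukocyte miRNAs was higher after injury in C57BL/6, where 0.784% of all 638 miRNAs were called lower and 2.35% higher. Of the 7 leukocyte miRNAs, 1 was lower in CAST/Ei in each of the naive and injured comparisons, where 5.17% and 2.51% of all were. After injury in CAST/Ei 0 of these passed. Of the kept erythrocyte (3), endothelial (2), fibroblast (3), mural cell (2), epithelial (6) and hepatocyte (1) miRNAs, 0 passed in the 4 pairwise comparisons by limma.

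Counted without C57BL/6 naive libraries 4 and 5, the muscle count after injury in C57BL/6 was again 2 of 4 lower, and 2 of 7 leukocyte miRNAs were higher after injury in each strain. Between naive strains 3 of 6 epithelial miRNAs and 1 of 4 skeletal muscle miRNAs were higher and 2 of 7 leukocyte miRNAs lower in CAST/Ei. Between injured strains 1 of 6 epithelial miRNAs was higher and 1 of 7 leukocyte miRNAs lower. After injury in CAST/Ei 1 of 6 epithelial miRNAs was lower. In either direction, 4.63% of all 627 miRNAs passed after injury in C57BL/6 and 2.71% after injury in CAST/Ei. Between strains the shares were 14.2% in naive and 5.1% in injured DRG. Named after their values were seen, the miRNAs that stood highest in libraries 4 and 5 over libraries 1 to 3 among these lists were miR-141-3p (log2 difference of 5.31), miR-122-5p (5.23), miR-200a-3p (4.78) and miR-200b-3p (4.34).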
